A study of Arabidopsis thaliana with 12 samples.

Results

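The nuclear genes for the light-harvesting antennae, the photosystem subunits and the small subunit of Rubisco were taken from the RNAseq counts of *A. thaliana* shoots by their locus identifiers. They are 46 of the 38618 loci in the table, namely 14 LHCB genes, 6 LHCA genes, 12 PSA genes, 10 PSB genes and 4 RBCS genes, and all 46 passed the filter on low counts. Seedlings of the wild type Col-0 received 10 µM progesterone (PO shoots), 10 µM testosterone (TO shoots) or the solvent alone as mock treatment (0.12% DMSO, DMSO shoots), and leaves were frozen 1 h later. Progesterone was also given in 0.12% DMSO, while for testosterone the percentage of DMSO is not given in the sources used here. Each of the 3 treatments had 4 replicates, described by the study as biologically independent, which gave 12 libraries. Whether a replicate was a pool of plants is not given in the sources used here. The plants had spent 2 days on a nutrient-poor medium after transfer at an age of 7 days, whereas another entry of the labels states 10 days. Long days were used for cultivation, and the time of day of the harvest is not given in the sources used here.

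In the thylakoid membrane, the LHCB proteins gather light for photosystem II and the LHCA proteins gather it for photosystem I. The PSA and PSB proteins are subunits of photosystem I and photosystem II that are encoded in the nucleus, while the reaction centre proteins are encoded in the chloroplast. RBCS is the small subunit of Rubisco, the enzyme that fixes carbon dioxide. Transcripts of these genes are known to be abundant in green leaves and to depend on light, on the circadian clock and on signals from the chloroplast. PO and TO are steroids with the same ring system that differ in the side group of the D ring, which is an acetyl group in PO and a hydroxyl group in TO.

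The stretches of 250 bases before the annotated gene starts are shown for 6 genes, because *LHCB2.1*, *LHCB2.2* and *LHCB2.3* had the largest differences between PO and DMSO shoots, *LHCB6* and *PSBX* were among the genes with the smallest p, and *RBCS1A* had the smallest difference. These 6 genes were picked after their values had been seen. The sequences come from the RefSeq assembly TAIR10.1 and run 5′ to 3′ on the strand of the gene. Capitals mark the matches to 5 motifs searched on both strands, the G-box CACGTG, the I-box GATAAG, the CCA1 site AAAAATCT, the evening element AAAATATCT and the CCAAT box CCAAT, none of which contains another.
LHCB2.1 (chr2:1824481-1824730, minus strand): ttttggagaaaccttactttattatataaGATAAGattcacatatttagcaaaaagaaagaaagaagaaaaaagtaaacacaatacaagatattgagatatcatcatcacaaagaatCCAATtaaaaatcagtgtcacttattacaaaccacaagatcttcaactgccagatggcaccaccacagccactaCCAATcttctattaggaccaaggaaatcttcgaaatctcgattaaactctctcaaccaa
LHCB2.2 (chr2:1800473-1800722, minus strand): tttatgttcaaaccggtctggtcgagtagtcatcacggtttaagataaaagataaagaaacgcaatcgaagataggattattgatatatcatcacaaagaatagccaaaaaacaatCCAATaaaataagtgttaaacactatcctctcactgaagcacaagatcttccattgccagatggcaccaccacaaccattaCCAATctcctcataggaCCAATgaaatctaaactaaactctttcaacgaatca
LHCB2.3 (chr3:10255656-10255905, plus strand): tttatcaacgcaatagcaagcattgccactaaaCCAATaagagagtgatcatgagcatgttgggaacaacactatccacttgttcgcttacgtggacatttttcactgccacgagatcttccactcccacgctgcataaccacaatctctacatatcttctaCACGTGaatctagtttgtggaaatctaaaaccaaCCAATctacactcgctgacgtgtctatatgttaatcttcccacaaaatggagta
LHCB6 (chr1:5447881-5448130, minus strand): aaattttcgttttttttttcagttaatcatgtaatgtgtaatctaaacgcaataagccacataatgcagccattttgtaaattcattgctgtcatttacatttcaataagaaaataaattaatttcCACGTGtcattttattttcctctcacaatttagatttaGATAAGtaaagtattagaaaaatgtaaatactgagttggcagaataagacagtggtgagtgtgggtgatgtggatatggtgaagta
PSBX (chr2:2588449-2588698, minus strand): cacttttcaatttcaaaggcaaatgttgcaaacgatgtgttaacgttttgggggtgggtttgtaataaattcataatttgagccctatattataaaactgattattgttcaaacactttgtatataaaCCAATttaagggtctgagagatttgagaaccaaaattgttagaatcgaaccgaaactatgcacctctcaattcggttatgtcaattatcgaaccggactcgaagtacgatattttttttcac
RBCS1A (chr1:25049668-25049917, minus strand): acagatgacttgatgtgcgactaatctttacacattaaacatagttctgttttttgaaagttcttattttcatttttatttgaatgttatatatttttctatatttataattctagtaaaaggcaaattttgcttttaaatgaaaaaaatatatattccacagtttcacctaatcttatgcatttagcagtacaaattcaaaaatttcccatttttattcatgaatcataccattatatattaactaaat

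The promoters of *LHCB2.1* and *LHCB2.2* shared a longest run of 20 bases, tgccagatggcaccaccaca, which started 86 bases before the start of *LHCB2.1* and 80 bases before that of *LHCB2.2*. A CCAAT box was found in 13 of the 14 LHCB promoters (92.9%) and in 29 of all 46 promoters (63%), beside 46% of the 27443 protein-coding nuclear genes. The G-box was present in 9 of the 46 (19.6%, beside 6.49% of all), the I-box in 10 (21.7%, beside 12.3%), the CCA1 site in 5 (10.9%, beside 6.69%) and the evening element in 1 (2.17%, beside 2.36%). The only LHCB promoter without a CCAAT box in this window was that of *LHCB6*, which held a G-box and an I-box. A match is a description of these letters and does not show that a factor binds there.

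Levels of one gene across libraries are given as CPM, which are counts divided by the library total after edgeR's TMM scaling, and comparisons between genes use TPM, which also divides by exon length. Total counts per library lay between 41036335 and 63445014, and the 46 genes took up to 11.9% of them in PO, up to 12.1% in TO and between 12% and 14.2% in DMSO libraries. Leaf tissue was also seen in the markers, since the summed level of 5 mesophyll genes lay between 3689 and 6357 CPM in all libraries and that of 7 root genes between 0.379 and 4.19 CPM. In whole leaves, fewer cells of a type and less RNA per cell cannot be told apart. The libraries were prepared strand-specifically, but the antisense locus AT2G08665, which covers 1045 exonic bases of *LHCB1.5*, had the same counts as *LHCB1.5* within 3 counts in every library, so that reads were counted without regard to strand.

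Per exon length, the LHCB genes spanned the widest range (the plot of levels per exon length). *LHCB1.3* (AT1G29930), a gene of the major trimeric antenna LHCII, had the highest level of all 46 genes with 16680 TPM in PO, 17460 TPM in TO and 19450 ± 1950 TPM in DMSO shoots (SD, n = 4). *LHCB4.3* (AT2G40100), a gene of a minor antenna protein, had the lowest level with 11.7 TPM in PO, 10.2 TPM in TO and 9.69 ± 1.9 TPM in DMSO shoots (SD, n = 4). Among the photosystem subunits, *PSBR* (AT1G79040), which is needed for a stable oxygen-evolving complex, was highest with 9994 TPM in PO, 9744 TPM in TO and 11080 ± 341 TPM in DMSO shoots (SD, n = 4). *RBCS1A* (AT1G67090) was the highest RBCS gene with 12200 TPM in PO, 10670 TPM in TO and 11520 ± 1540 TPM in DMSO shoots (SD, n = 4), and *RBCS3B* (AT5G38410) followed with 7790, 7422 and 8188 ± 981 TPM in PO, TO and DMSO shoots (SD, n = 4). *LHCA5* (AT1G45474) and *LHCA6* (AT1G19150), which link photosystem I to the chloroplast NADH dehydrogenase-like complex, lay far below the other LHCA genes, with 96.5 ± 14.3 and 51.9 ± 7.47 TPM in DMSO shoots (SD, n = 4), while *LHCA1* (AT3G54890) had 5058 ± 596 TPM.

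**Figure D1:**
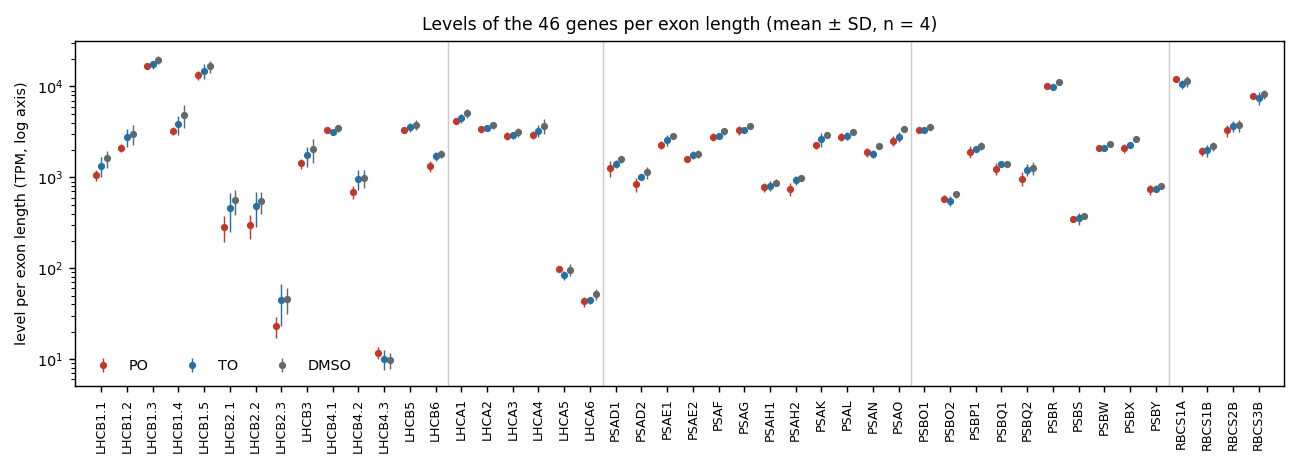
Level per exon length (TPM, log axis) of each of the 46 genes in PO (red), TO (blue) and DMSO shoots (grey), as mean and SD of 4 libraries. In DMSO shoots the means run from 9.69 TPM for LHCB4.3 to 19450 TPM for LHCB1.3, and most genes sit above 500 TPM.

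Summed over each family, the levels were lower in both steroid treatments than in DMSO shoots, with the libraries of a treatment spread widely. The 14 LHCB genes summed to 40590 ± 3780 CPM in PO, 44560 ± 6430 CPM in TO and 52570 ± 8730 CPM in DMSO shoots (SD, n = 4). The 12 PSA genes lay between 13590 and 16980 CPM in PO and between 14620 and 18110 CPM in TO, below all DMSO libraries, which lay between 18180 and 20530 CPM. As a share of all counts, without TMM scaling, the PSA genes still did not overlap in PO (1.37% to 1.71%, against 1.76% to 1.98% in DMSO), but the TO libraries reached 1.85% and overlapped those of DMSO. The 10 PSB genes lay between 15540 and 18490 CPM in PO and between 16130 and 18130 CPM in TO, against 18300 to 20820 CPM in DMSO shoots, so that only the TO libraries did not overlap those of DMSO in CPM, whereas as a share of all counts neither PO (up to 1.86%) nor TO (up to 1.83%) reached the lowest DMSO library (1.89%). The 4 RBCS genes summed to 23620 ± 1290 CPM in PO, 21940 ± 2860 CPM in TO and 24960 ± 3260 CPM in DMSO shoots (SD, n = 4), differences within the spread of the libraries. The 6 LHCA genes, with 13280 ± 1140 CPM in PO, 13880 ± 1400 CPM in TO and 16090 ± 2230 CPM in DMSO shoots (SD, n = 4), overlapped between treatments. Both treatments are set against the same 4 DMSO libraries, so that the 2 comparisons are not independent.

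**Figure D2:**
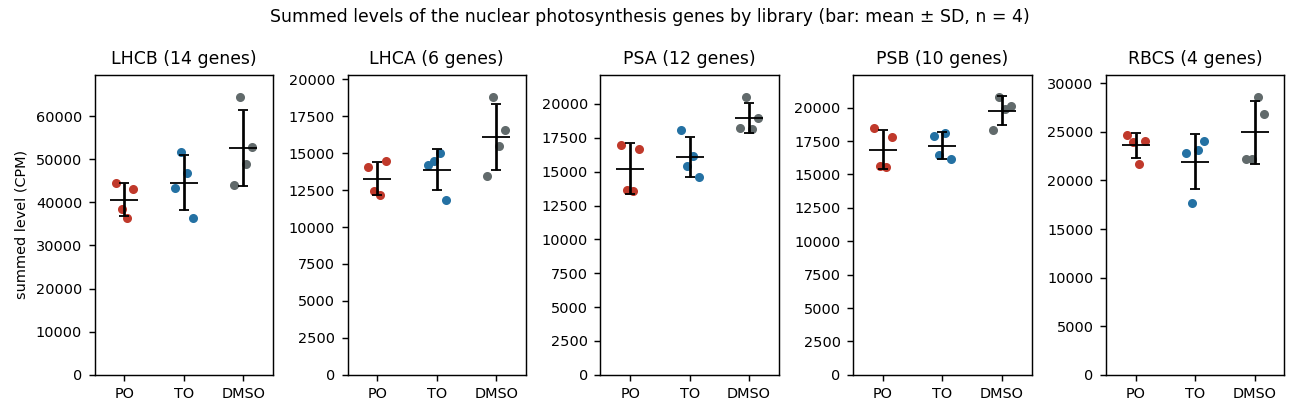
Summed level (CPM) of the genes of each family in every library of PO, TO and DMSO shoots, with mean and SD as bars. All PO and all TO libraries lie below all DMSO libraries in the PSA panel on this scale, of which only PO does so as a share of all counts, while the RBCS panel shows wide overlap.

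Progesterone was compared with the mock treatment to ask which of these genes differed after 1 h. In PO shoots 44 of the 46 genes had a logFC below 0 (51.8% of all tested loci did), where the logFC is on the log2 scale and a negative value stands for a lower level in PO than in DMSO shoots. The median logFC over the 46 genes was −0.28, beside −0.01 over all tested loci and −0.03 over the 177 other loci with at least 500 CPM in DMSO shoots. Of those 177 loci, 102 had a logFC below 0. By family the median was −0.57 for LHCB, −0.33 for PSA, −0.26 for LHCA, −0.21 for PSB and −0.18 for RBCS. None of the 46 genes passed edgeR's quasi-likelihood test at an adjusted p under 0.05 over the 23203 tested loci, of which 39 did (0.168%), and the smallest adjusted p of the 46 was 0.19 (edgeR). Many of the 46 genes varied together between libraries, as described below, so that counts of genes are not counts of independent results. At an unadjusted p under 0.05, 27 of the 46 were lower (6.16% of all loci) and 0 were higher (5.96%). These were 11 of 14 LHCB, 9 of 12 PSA, 3 of 6 LHCA, 4 of 10 PSB and 0 of 4 RBCS genes. In 19 genes all 4 PO libraries lay below all 4 DMSO libraries (2.72% of all loci), 9 of them LHCB, 7 PSA, 2 PSB and 1 LHCA. With libraries scaled by their totals alone, an alternative chosen after the data had been seen, the number was 17 (1.68% of all loci), since *LHCB2.2*, *LHCB4.2*, *PSAH2* and *PSAL* then overlapped and *LHCB1.3* and *LHCB1.5* did not. DESeq2, the tool the study used, called 6 of the 46 in PO shoots, all of them lower, namely *LHCB1.1*, *LHCB6*, *PSAD2*, *PSAK*, *PSAO* and *PSBX*, with adjusted p between 0.0118 and 0.049, beside 1.44% of all loci to which DESeq2 gave an adjusted p. Without DMSO replicate 2 the number lower at an unadjusted p under 0.05 was 15 (5.48% of all loci in that fit). It was 17 without PO replicate 2 (4.82%) and 17 without PO replicate 3 (5.01%). Without PO replicate 1 it was 33 (8.28%), and 1 gene, *PSAH2*, was called by edgeR (adjusted p = 0.049). That fit called 144 of 23480 loci (0.613%).

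**Figure D3:**
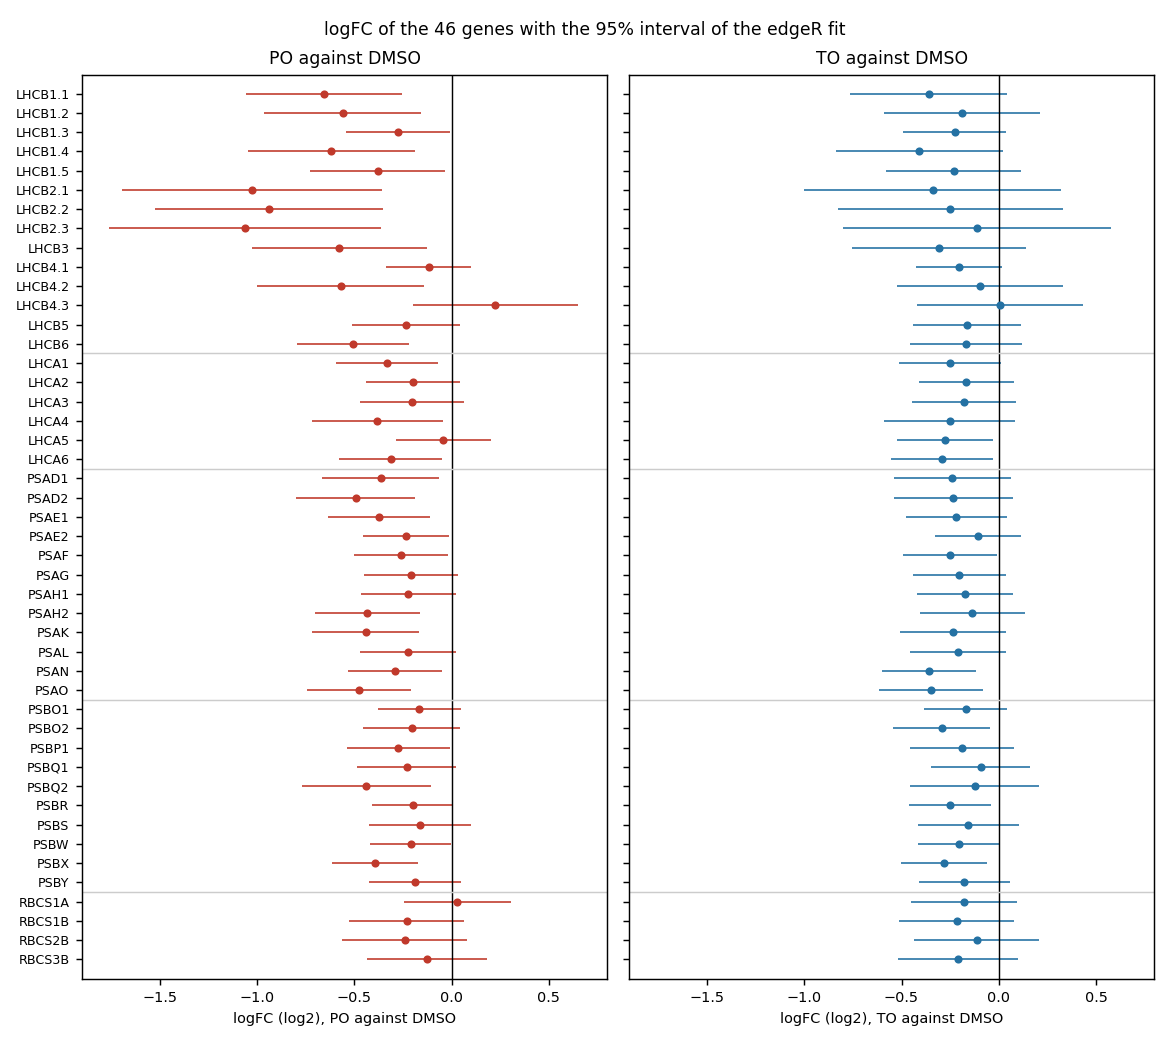
logFC (log2) of the 46 genes in PO against DMSO shoots (left) and in TO against DMSO shoots (right), with the 95% interval of the edgeR fit. In PO the LHCB2 genes sit lowest, between −1.06 and −0.94, and in TO all values lie between −0.41 and 0.01.

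The LHCII genes held the largest differences in PO shoots. *LHCB2.1* (AT2G05100) had 417, 230, 210 and 282 CPM in the PO libraries, 407, 745, 436 and 246 CPM in the TO libraries and 440, 842, 455 and 586 CPM in the DMSO libraries. All PO libraries lay below all DMSO libraries, as did 3 TO libraries, while TO replicate 2 lay within the range of the DMSO libraries. The logFC in PO was −1.03 ± 0.31 (SE; adjusted p = 0.24, edgeR), or 0.491 times the DMSO level. *LHCB2.2* (AT2G05070) had 345, 195, 187 and 238 CPM in PO, 337, 612, 357 and 253 CPM in TO and 369, 646, 355 and 482 CPM in DMSO shoots. Again the PO libraries lay below those of DMSO, with a logFC of −0.94 ± 0.27 (SE; adjusted p = 0.22, edgeR), but with libraries scaled by their totals alone they overlapped. The third gene of this group, *LHCB2.3* (AT3G27690), was far less abundant, with 32.5, 20.3, 17.8 and 25.7 CPM in PO, 48.7, 73.8, 43.4 and 20.2 CPM in TO and 42.7, 74.0, 34.4 and 50.1 CPM in DMSO shoots. Its logFC in PO was −1.06 ± 0.33 (SE; adjusted p = 0.24, edgeR), and the PO libraries lay below those of DMSO. LHCB2 proteins, like LHCB1 proteins, belong to LHCII and are phosphorylated when the antenna moves between the photosystems. Of the exonic windows of 50 bases, 23.6% in *LHCB2.1* and 29.5% in *LHCB2.2* occurred again in the genome, so that reads could be shared. *LHCB2.3* overlaps AT3G27700 on the other strand by 595 bases, and that locus had between 49.7% and 154% of the counts of *LHCB2.3*, so that its level is uncertain.

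**Figure D4:**
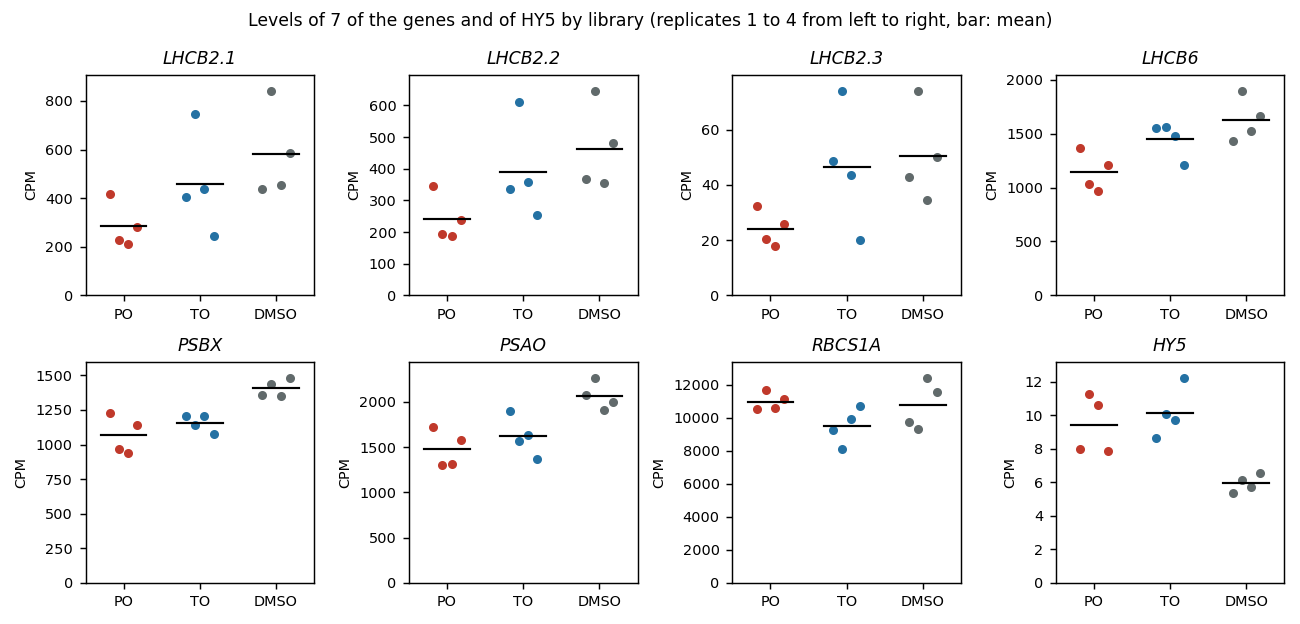
Level (CPM) of LHCB2.1, LHCB2.2, LHCB2.3, LHCB6, PSBX, PSAO, RBCS1A and HY5 in each library of PO, TO and DMSO shoots, with the mean as a bar. The PO points lie below all DMSO points in the first 6 panels, overlap them in RBCS1A and lie above them in HY5, and with libraries scaled by their totals alone those of LHCB2.2 would overlap.

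Of the 5 LHCB1 genes, which encode the most abundant LHCII proteins, *LHCB1.1* (AT1G29920) and *LHCB1.4* (AT2G34430) had the lowest logFC in PO shoots, −0.66 and −0.62. *LHCB1.1* had 1172, 1055, 857 and 918 CPM in PO, 1232, 1598, 1195 and 884 CPM in TO and 1197, 2000, 1384 and 1723 CPM in DMSO shoots, with the highest PO library just below the lowest DMSO library. *LHCB1.3* and *LHCB1.5* (AT2G34420), the most abundant ones, had a logFC of −0.28 and −0.38 with overlapping libraries. Between 10.7% and 20.5% of the exonic windows of the LHCB1 genes occurred again in the genome. *LHCB3* (AT5G54270), the third type of LHCII protein, had a logFC of −0.58 (adjusted p = 0.31 from edgeR). Without DMSO replicate 2 the logFC of *LHCB1.4* was −0.40 and that of *LHCB3* −0.34. The monomeric antenna proteins that connect LHCII to the core differed among themselves. *LHCB6* (AT1G15820) had 1364, 1030, 970 and 1213 CPM in PO, 1554, 1564, 1475 and 1205 CPM in TO and 1434, 1895, 1520 and 1666 CPM in DMSO shoots. The PO libraries lay below those of DMSO, at a logFC of −0.51 ± 0.13 (SE; adjusted p = 0.19, edgeR, and 0.0199, DESeq2). *LHCB6* shares 143 exonic bases with AT1G05207 on the other strand, which had between 19% and 26.5% of its counts. *LHCB4.2* (AT3G08940) had a logFC of −0.57, whereas *LHCB4.1* (AT5G01530), the main gene of this protein, had −0.12 and *LHCB5* (AT4G10340) had −0.24, both with overlapping libraries. Without DMSO replicate 2 the value of *LHCB5* was −0.14. *LHCB4.3* was the only LHCB gene above 0 in PO, at 0.22 with a 95% interval from −0.20 to 0.65, and at 0.11 without DMSO replicate 2.

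For photosystem I, the logFC of all 12 PSA genes in PO shoots lay between −0.49 and −0.21. The lowest values belonged to *PSAD2* (AT1G03130, −0.49), a subunit of the ridge where ferredoxin docks, *PSAO* (AT1G08380, −0.48) and *PSAH2* (AT1G52230, −0.43), which belong to the side where LHCII binds, and *PSAK* (AT1G30380, −0.44), which binds the antenna. *PSAO* had 1725, 1305, 1318 and 1577 CPM in PO, 1903, 1569, 1640 and 1366 CPM in TO and 2073, 2263, 1913 and 1997 CPM in DMSO shoots. Every PO library and every TO library lay below every DMSO library, but with libraries scaled by their totals alone TO overlapped DMSO. *PSAL* (AT4G12800), *PSAN* (AT5G64040) and *PSAE1* (AT4G28750) also had no overlap between PO and DMSO, at logFC of −0.23, −0.29 and −0.38. With libraries scaled by their totals alone, *PSAL* and *PSAH2* overlapped. *PSAD1* (AT4G02770), *PSAE2* (AT2G20260), *PSAF* (AT1G31330), *PSAG* (AT1G55670) and *PSAH1* (AT3G16140) overlapped, at logFC between −0.37 and −0.21. *PSAG*, *PSAH1*, *PSAE1* and *PSAH2* share 479, 693, 263 and 174 exonic bases with loci on the other strand, and their levels are uncertain. The LHCA genes of photosystem I ranged from −0.38 for *LHCA4* (AT3G47470) to −0.04 for *LHCA5*, and only *LHCA1* had no overlap between PO and DMSO libraries (logFC −0.33, adjusted p = 0.31 from edgeR).

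For photosystem II, *PSBX* (AT2G06520), a small membrane subunit, had the smallest p of the 46 genes in PO shoots. Its level was 1230, 967, 941 and 1143 CPM in PO, 1210, 1138, 1209 and 1077 CPM in TO and 1362, 1435, 1354 and 1480 CPM in DMSO shoots. No PO or TO library reached the lowest DMSO library, and the logFC in PO was −0.40 ± 0.10 (SE; adjusted p = 0.19, edgeR, and 0.0118, DESeq2). *PSBR* had 5839, 5224, 5361 and 5852 CPM in PO, 5384, 5068, 5913 and 5145 CPM in TO and 6420, 6459, 6552 and 6183 CPM in DMSO shoots. Its 4 DMSO libraries stayed within a narrow range above all others, at a logFC of −0.20 in PO and −0.25 in TO (adjusted p = 0.43 and 0.41 from edgeR). With libraries scaled by their totals alone, the TO libraries of *PSBR* overlapped those of DMSO. The genes of the oxygen-evolving complex *PSBO1* (AT5G66570), *PSBO2* (AT3G50820), *PSBP1* (AT1G06680), *PSBQ1* (AT4G21280) and *PSBQ2* (AT4G05180) had logFC between −0.44 and −0.17 in PO, with overlapping libraries. *PSBS* (AT1G44575), the sensor of lumen pH in photoprotection, had −0.16, and the small subunits *PSBW* (AT2G30570) and *PSBY* (AT1G67740) had −0.21 and −0.19, the value of *PSBY* being −0.12 without PO replicate 3. *RBCS1A* had 10520, 11690, 10620 and 11150 CPM in PO, 9276, 8128, 9933 and 10750 CPM in TO and 9756, 9329, 12410 and 11590 CPM in DMSO shoots, at a logFC of 0.03 in PO with a 95% interval from −0.24 to 0.30. The 4 PO libraries lay within the range of the DMSO libraries. *RBCS1B* (AT5G38430), *RBCS2B* (AT5G38420) and *RBCS3B* had −0.23, −0.24 and −0.13 in PO, all overlapping, and *RBCS2B* had −0.16 without PO replicate 3.

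Testosterone was compared with the mock treatment in the same way. In TO shoots 45 of the 46 genes had a logFC below 0 (49.9% of all tested loci), at a median of −0.21 over the 46 genes, beside 0.00 over all tested loci and −0.10 over the 177 other abundant loci. Of those 177 loci, 133 also had a logFC below 0 in TO. The families were close to each other, with medians of −0.25 for LHCA, −0.23 for PSA, −0.22 for LHCB, −0.19 for RBCS and −0.18 for PSB. None of the 46 passed the adjusted threshold with edgeR, where 66 of all loci did (0.284%), or with DESeq2 (1.33% of all loci), and the smallest adjusted p from edgeR was 0.27. At an unadjusted p under 0.05, 8 genes were lower (4.87% of all loci) and 0 were higher (4.64%). They were *LHCA5*, *LHCA6*, *PSAF*, *PSAN*, *PSAO*, *PSBO2*, *PSBR* and *PSBX*, and no LHCB gene was among them. The number was 3 without TO replicate 4 (4.12% of all loci in that fit) and 17 without DMSO replicate 1 (4.74%). It was 13 without TO replicate 1 (5.39%) and 4 without DMSO replicate 4 (5.18%). Only *PSAN*, *PSAO*, *PSBR* and *PSBX* had no overlap between TO and DMSO libraries (2.48% of all loci), and with libraries scaled by their totals alone only *PSAN* and *PSBX* (1.27%). *PSAN*, a subunit on the lumen side where plastocyanin docks, had 1517, 1213, 1202 and 1513 CPM in PO, 1480, 1248, 1296 and 1178 CPM in TO and 1577, 1798, 1687 and 1599 CPM in DMSO shoots. Both steroid treatments lay below the DMSO libraries, and the logFC in TO was −0.36 ± 0.11 (SE; adjusted p = 0.27, edgeR).

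PO and TO, given at the same dose for the same time, were also compared with each other. edgeR called 0 of all tested loci (0%) at an adjusted p under 0.05, and DESeq2 called 6 loci (0.0258%), none of them among the 46 genes. In PO against TO shoots 37 of the 46 genes had a logFC below 0 (50.4% of all loci), at a median of −0.08, with −0.28 for LHCB, −0.13 for PSA, −0.03 for LHCA, −0.01 for PSB and 0.03 for RBCS. Of the 177 other abundant loci 55 were below 0. With edgeR, 6 of the 46 were lower in PO at an unadjusted p under 0.05 (4.37% of all loci) and 0 were higher (3.31%). They were *LHCB2.1*, *LHCB2.2*, *LHCB2.3*, *LHCB4.2*, *LHCB6* and *PSAH2*. For *LHCB2.3* the logFC of PO against TO was −0.95 with a 95% interval from −1.65 to −0.26 (adjusted p = 0.63 from edgeR). For *LHCB2.2* it was −0.69 with an interval from −1.27 to −0.11, and for *LHCB6* −0.34 with an interval from −0.63 to −0.05. Without TO replicate 2 the value was −0.35 for *LHCB2.1*, −0.39 for *LHCB2.2* and −0.31 for *LHCB4.2*, against −0.69, −0.69 and −0.47 with all libraries. None of the 46 had all PO libraries below all TO libraries (2.1% of all loci), and 1 gene, *LHCA5*, had all PO libraries above all TO libraries (2.05%), with 77.9, 74.4, 68.7 and 75.0 CPM in PO and 66.9, 51.8, 64.4 and 68.5 CPM in TO shoots. For *RBCS1A* the interval of the difference ran from −0.07 to 0.48. The number of 6 became 0 without TO replicate 2 (2.51% of all loci in that fit). It was 1 without PO replicate 2 (3.62%) or PO replicate 3 (2.77%). It was 3 without TO replicate 1 (4.08%) or TO replicate 3 (3.66%), and 10 without TO replicate 4 (5.22%).

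Shares between gene copies were tested because they do not depend on the depth or scaling of a library. For 9 groups of paralogues and 3 comparisons, 0 of the 27 two-sided exact permutation tests had an adjusted p under 0.05, and 0 had an unadjusted p under 0.05, where 4 against 4 libraries allow no p below 0.0286. At least 16 of the 27 tests would have had to reach that smallest p for any adjusted p under 0.05, so that the adjusted count says little. *LHCB4.1* made up 82.9 ± 2.09% of the counts of the 3 LHCB4 genes in PO, 76.8 ± 4.14% in TO and 78.1 ± 3.45% in DMSO shoots (SD, n = 4). Its difference between PO and TO was 6.07 percentage points (exact permutation p = 0.0571, adjusted 0.3857). *PSAH1* made up 65.8 ± 1.5% of the PSAH counts in PO, 61.7 ± 2.33% in TO and 62.3 ± 1.79% in DMSO shoots (SD, n = 4), and the exact permutation p was 0.0571 against either of the others, although both PSAH genes overlap other loci. *RBCS1A* made up 46.6 ± 2.89% of the RBCS counts in PO, 43.5 ± 2.28% in TO and 43.1 ± 0.833% in DMSO shoots (SD, n = 4). The share of *LHCB2.3* among the LHCB2 genes was 4.41 ± 0.28% in PO, 5.10 ± 0.923% in TO and 4.58 ± 0.399% in DMSO shoots (SD, n = 4).

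Within a treatment the libraries differed in a pattern that most LHCB genes had in common. In DMSO replicate 2 and TO replicate 2 the LHCB genes summed to 64470 and 51690 CPM, the highest values of their treatments, and in TO replicate 4 to 36380 CPM, the lowest of TO. For *LHCB2.3* TO replicate 2 and TO replicate 4 stood at 73.8 and 20.2 CPM, a range wider than that between the means of PO and DMSO shoots. The RBCS genes did not follow, since TO replicate 2 had the lowest RBCS sum of its treatment (17720 CPM). As a description over the 12 libraries after the mean of each treatment was taken out, the median Pearson r was 0.88 among the 91 pairs of LHCB genes, 0.77 among the 66 pairs of PSA genes and −0.24 between LHCB and RBCS genes. All points share the depth and scaling of their library. Of the tested nuclear loci outside the 46 genes, the 5 closest to their mean profile were AT1G05207 (r = 0.945) and AT4G28755 (r = 0.921), which overlap *LHCB6* and *PSAE1* on the other strand, and AT5G05090 (r = 0.909), AT1G51402 (r = 0.906) and AT2G23840 (r = 0.904), over 12 libraries each.

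**Figure D5:**
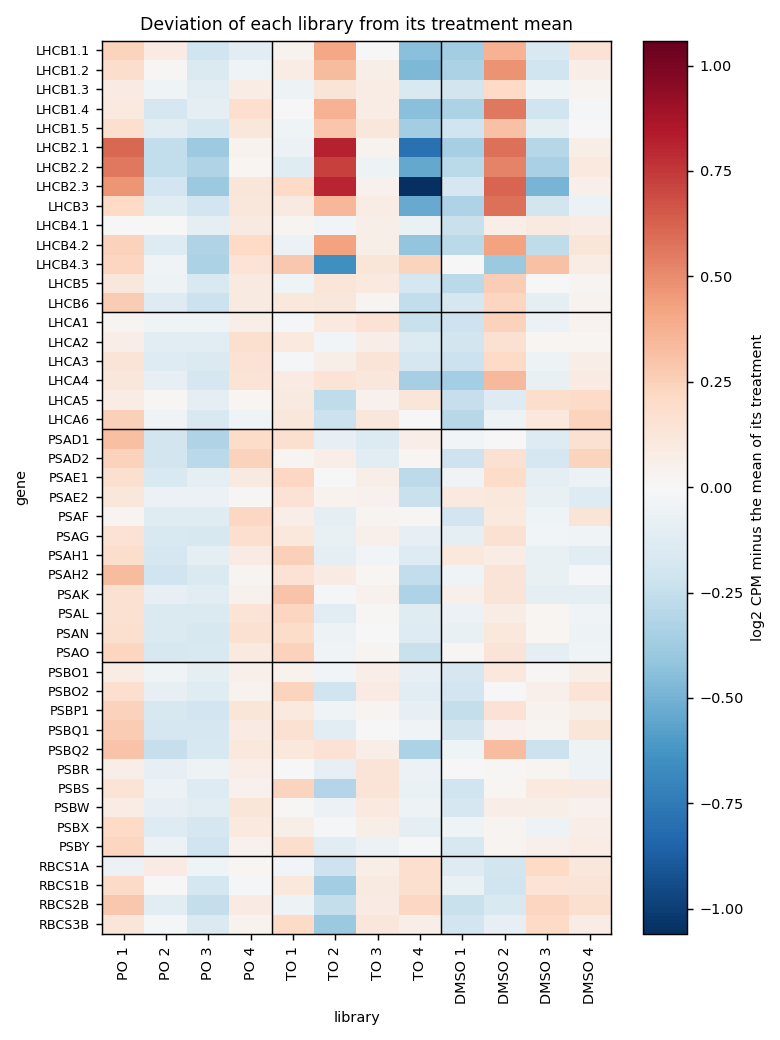
Log2 CPM of each gene (rows, by family) in each library (columns, PO, TO and DMSO) minus the mean of its treatment. DMSO replicate 2 and TO replicate 2 are red and TO replicate 4 is blue in most LHCB rows, while the RBCS rows of TO replicate 2 are blue.

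The clock gene *PRR9*, a repressor expressed in the morning, had 4.73, 2.70, 2.16 and 3.23 CPM in PO, 5.11, 7.35, 4.15 and 2.298 CPM in TO and 3.13, 6.56, 3.80 and 3.70 CPM in DMSO shoots. Its highest libraries were DMSO replicate 2 and TO replicate 2, as for the LHCB genes. *SIG5*, a sigma factor for chloroplast transcription, had 6.66, 4.58, 4.34 and 5.73 CPM in PO, 5.38, 9.22, 6.72 and 5.00 CPM in TO and 5.01, 9.64, 6.17 and 6.29 CPM in DMSO shoots, with the same highest libraries. Both genes were chosen after their values had been seen. Over the tested clock genes and light regulators, r with the mean LHCB profile within treatments ran from −0.72 to 0.96. *PRR9* (0.96) and *SIG5* (0.92) had the highest r, and other genes of both lists had an r below 0. The part of these differences between libraries in the treatment comparisons was not tested beyond leaving libraries out. Without DMSO replicate 2 and TO replicate 2 together, an alternative chosen after the data had been seen, the genes lower at an unadjusted p under 0.05 were 17 in PO, 2 in TO and 1 in PO against TO. Of all loci in that fit, 5.39%, 3.61% and 2.53% were lower.

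Of 99 tested genes of 7 lists that act with the photosystems, edgeR called 0 in PO (0.168% of all loci), 1 in TO (0.284%) and 0 in PO against TO (0%). DESeq2 called *HY5*, *OHP1* and *PORA* in PO and *HY5*, *OHP1* and *ELF4* in TO, beside 1.44% and 1.33% of all loci, and 0 in PO against TO. *HY5* (AT5G11260), a transcription factor of light signalling that binds promoters of photosynthesis genes, had 7.98, 11.3, 10.6 and 7.84 CPM in PO, 8.66, 10.08, 9.69 and 12.2 CPM in TO and 5.38, 6.14, 5.74 and 6.57 CPM in DMSO shoots. All libraries of both steroid treatments lay above all DMSO libraries. *HY5* rose in TO shoots at a logFC of 0.77 ± 0.15 (SE; adjusted p = 0.0438, edgeR), and had 0.66 in PO shoots (adjusted p = 0.12 from edgeR and 0.00588 from DESeq2). The call in TO was close to the threshold, and was lost without DMSO replicate 1, 2, 3 or 4, without PO replicate 3 and without TO replicate 2, 3 or 4 (adjusted p between 0.0565 and 0.129, edgeR). Of the 20 tested light regulators 1 was lower and 2 were higher at an unadjusted p under 0.05 in PO, and 0 were lower and 3 higher in TO, where 6.16% of all loci were lower and 5.96% higher in PO, and 4.87% lower and 4.64% higher in TO. *PHYA*, the photoreceptor of far-red light, had a logFC of 0.48 in PO and 0.57 in TO (adjusted p = 0.31 and 0.25 from edgeR). *OHP1*, a one-helix protein needed for the assembly of photosystem II, had 42.8, 34.2, 35.9 and 31.7 CPM in PO, 38.1, 34.0, 32.8 and 34.2 CPM in TO and 46.03, 48.9, 49.4 and 45.7 CPM in DMSO shoots. Its libraries lay below those of DMSO in both treatments, at a logFC of −0.39 in PO and −0.45 in TO (adjusted p = 0.15 and 0.065 from edgeR, 0.0164 and 0.00239 from DESeq2). *OHP1* shares 116 exonic bases with AT5G02130 on the other strand.

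In PO shoots the medians of these 7 lists lay between −0.12 and 0.08. The counts of their genes at an unadjusted p under 0.05 stand beside 6.16% of all loci lower and 5.96% higher in PO, and 4.87% lower and 4.64% higher in TO, and several lie near these shares. A logFC below 0 in TO was found for 15 of 16 Calvin cycle, 13 of 13 electron carrier and ATP synthase and 9 of 10 photoprotection genes. The same held for 14 of 22 chlorophyll biosynthesis genes, 5 of 7 import and insertion genes, 8 of 20 light regulators and 3 of 11 clock genes. Of 22 genes of chlorophyll biosynthesis 2 were lower at an unadjusted p under 0.05 in PO and 0 in TO, at medians of −0.06 and −0.02. The 2 were *PORB*, a protochlorophyllide oxidoreductase, with a logFC of −0.34 in PO and 0.13 in TO, and its relative *PORA*, with 0.161, 0.0314, 0.066 and 0.138 CPM in PO, 0.116, 1.06, 0.578 and 0.309 CPM in TO and 0.479, 0.926, 0.327 and 0.319 CPM in DMSO shoots. The logFC of *PORA* was −2.40 in PO (adjusted p = 0.22 from edgeR and 0.0405 from DESeq2) and 0.01 in TO, at levels close to the 0.047 to 0.0723 CPM of 3 counts. *CRD1* and *CHLH*, enzymes of earlier steps, had −0.21 and −0.22 in TO, and *CHLH* ranged from −0.38 to −0.11 without 1 library. Of 16 Calvin cycle genes 0 were lower in PO and 1, *PRK*, in TO (logFC −0.30), at medians of −0.05 and −0.15. Rubisco activase *RCA* had −0.32 in TO, and the regulator *CP12-2* and the dehydrogenase subunit *GAPA2* had −0.28 and −0.20 in PO, with ranges of −0.41 to −0.15 and −0.30 to −0.12 without 1 library. Of 13 genes for electron carriers and the ATP synthase 3 were lower in PO and 2 in TO, at medians of −0.12 and −0.16. *PETE1*, a plastocyanin, and *FD1*, a ferredoxin, each had −0.35 or −0.34 in PO and −0.09 or −0.08 in TO. *PGR5*, which acts in cyclic electron flow, had −0.23 in PO and −0.30 in TO, with no overlap with DMSO in either, and *PETM*, a small subunit of the cytochrome complex, had −0.24 in TO. Of 10 photoprotection genes 2 were lower in PO, while 5 were lower and 1 was higher in TO, at medians of −0.12 and −0.22. The higher one had a logFC of 1.39 in TO, larger in size than those of the lower ones. *STN7*, the kinase of LHCII, had −0.32 in PO and −0.28 in TO, and *ZEP*, zeaxanthin epoxidase, had −0.18 and −0.46. Of 7 genes for protein import and insertion 2 were higher in PO, *TOC159* (0.34) and *TIC40* (0.20), and 0 in TO, where *TIC40* had 0.15 and *CPSRP54* −0.11, which ranged from 0.10 to 0.20 and from −0.17 to −0.06 without 1 library. *TOC159* shares 890 exonic bases with AT4G02520 on the other strand, so that its level is uncertain. Of 11 clock genes 2 were lower and 1 was higher in PO, 3 were lower and 2 higher in TO, with *CCA1* at −0.72 in both and *PRR7* at −0.34 and −0.26, and *ELF4* and *PRR5* had 0.39 and 0.36 in TO (adjusted p = 0.15 and 0.36 from edgeR, 0.0306 and 0.265 from DESeq2). None of the genes in this paragraph was called at an adjusted p under 0.05 in the main edgeR fit. *FD1* in PO was called under 1 of 20 alternatives (adjusted p = 0.0418, edgeR).

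The summed level of the chloroplast-encoded loci lay between 5649 and 7403 CPM in PO and between 6612 and 15760 CPM in TO, against 8175 to 12430 CPM in DMSO shoots. The libraries were enriched for polyadenylated RNA, and chloroplast transcripts carry few such tails, so that these sums do not measure the chloroplast transcript pool. All 5 guard cell markers had a logFC below 0 in PO, and their sum lay between 37.8 and 90.01 CPM in PO, 65.4 and 93.9 CPM in TO and 62.6 and 101.5 CPM in DMSO shoots. The 5 mesophyll markers summed to 5458 ± 740 CPM in PO, 4683 ± 716 CPM in TO and 5497 ± 842 CPM in DMSO shoots (SD, n = 4), and all 5 had a logFC below 0 in TO and 3 of 5 in PO. The 5 epidermis markers lay between 684 and 913 CPM in PO, 843 and 1000 CPM in TO and 817 and 957 CPM in DMSO shoots, with all 5 below 0 in PO and 2 of 5 in TO. None of the 5 guard cell, 4 xylem, 4 tested root or 2 tested meristem markers had a logFC below 0 in TO, where 2 of the 4 xylem, 2 of the 4 root and 1 of the 2 meristem markers did in PO. Of the phloem markers 2 of 3 were below 0 in PO and 1 of 3 in TO, and of the flower markers likewise 2 of 3 and 1 of 3. Their part in the levels of the photosynthesis genes was not tested.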

How the data were processed

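RNA was sequenced from 12 libraries of *A. thaliana* leaves, 4 each of PO, TO and DMSO, grouped by the treatment in the sample labels. The authors enriched mRNA with oligo(dT) beads, made strand-specific libraries, trimmed the paired reads with fastp 0.23.2, aligned them with HISAT2 2.2.1 to TAIR10.1 and counted them with featureCounts 2.0.1. The strand, overlap and pair options of the counting are not given in the sources used here. The deposited values are whole-number counts per locus without normalization. Between 67.8% and 72.3% of the counts from 1 to 20 were even, so that both reads of a pair were probably counted.

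The test used edgeR 4.0.16 under R 4.3.3 (filterByExpr with a minimum count of 10, TMM scaling, quasi-likelihood test, prior count 0.125, 1 fit over the 12 libraries with 9 residual degrees of freedom). P-values were adjusted by the Benjamini-Hochberg method over the 23203 tested loci, and a gene is called at an adjusted p under 0.05. The standard error is the absolute logFC over the root of F, and DESeq2 1.42.0 served as the other tool. TPM used exon lengths of the RefSeq annotation of TAIR10.1, where 38074 of 38618 loci matched (98.6%). Copy shares were tested by two-sided exact permutation with Python 3.11.15. Plots were drawn with matplotlib 3.10.9. The code was tested on simulated counts. No library was left out, and 0 columns lacked a sample. Other scalings, other filters, a fit of 2 groups, a replicate block and the omission of each library were also tried, as was scaling by library totals alone, chosen after the data had been seen.

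The genes and lists were chosen with earlier results of these data known. Named are all 46 genes, and of each other list the called genes and the 2 with the smallest p in each treatment against DMSO, with markers given as sums, and the 5 loci closest in profile. *PRR9* and *SIG5* were added outside this rule. The depth corresponds to 0.047 to 0.0723 CPM for 3 counts.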

Additional observations from a re-analysis of the deposited data

Results flagged for a closer look

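In 7 of 165 groups of 4 libraries tested (4.24%), the highest or lowest library stood far from the other 3, which chance gives in about 1 of 20 groups. Among levels, DMSO replicate 1 was far below the other DMSO libraries for *LHCB4.1* (3004 CPM) and *PSBW* (1457 CPM), TO replicate 4 for *LHCA4* (2297 CPM) and TO replicate 2 for *RBCS1B* (2028 CPM). Among the shares of gene copies, PO replicate 1 was lowest for *PSAH1* of the PSAH genes (63.61%) and for *PSBO1* of the PSBO genes (85.8%), and DMSO replicate 2 was lowest for *LHCB1.1* to *LHCB1.3* of the LHCB1 genes (53.68%).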

How the results depend on the processing

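The count of genes called by edgeR was 0 in PO, in TO and in PO against TO under the other scalings, filters and the fit of 2 groups. DESeq2 called 6 in PO, and leaving out 1 library gave 0 to 1 in PO. The genes lower at an unadjusted p under 0.05 ranged from 15 to 33 in PO, from 3 to 17 in TO and from 0 to 10 in PO against TO when 1 library was left out. The shares of all loci in these fits ranged from 4.08% to 8.28%, from 3.98% to 5.39% and from 2.51% to 6.89%. DESeq2 gave 15 in TO (3.98% of all loci). The omission of DMSO replicate 2 and TO replicate 2 together, added after seeing the data, gave 17, 2 and 1. Beside these stood 5.39%, 3.61% and 2.53% of all loci. Why these counts moved was not tested beyond the omission itself. Without 1 library the median logFC of the 46 genes ranged from −0.3431 to −0.225 in PO, from −0.2484 to −0.1549 in TO and from −0.1429 (without PO replicate 1) to −0.0205 (without PO replicate 3) in PO against TO, where it was −0.0821. After the treatment means were taken out, r of same-numbered libraries lay between −0.131 and 0.183. With 4 libraries per treatment, these values cannot show whether the replicate numbers paired the samples. The replicate block gave 0 called genes and 25, 10 and 5 lower ones at an unadjusted p under 0.05. Beside these stood 6.68%, 5.05% and 5.27% of all loci. The tests of shares could hardly pass the adjusted threshold, and 5 of 12 omissions of 1 library gave 1 to 3 unadjusted p under 0.05, against 0 with all libraries. Of 138 logFC values of the 46 genes in 3 comparisons, 18 changed sign under at least 1 alternative, 13 of them in PO against TO for genes whose values there are not given. Without 1 library, *LHCA5* ranged from −0.1162 to 0.028 and *RBCS1A* from −0.0346 to 0.1026 in PO, while *LHCB2.3* ranged from −0.4256 to 0.1378, *LHCB4.2* from −0.2568 to 0.0605 and *LHCB4.3* from −0.1102 to 0.1804 in TO. *RBCS1A* in PO was −0.0345 without both libraries, and *LHCB4.3* in TO was −0.0136 with the replicate block. *HY5* in TO lost its call in 11 of 20 alternatives, with adjusted p from 0.000377 to 0.198 over all of them. They were the fit of 2 groups (0.0513), the replicate block (0.0527), the omission of DMSO replicate 1, 2, 3 or 4, of PO replicate 3 or of TO replicate 2, 3 or 4, and that of both libraries.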
